A study of Mus musculus with 4 samples.

Results

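The data described here are the transcripts of 8 genes of the cohesin complex, Smc3, Smc1a, Smc1b, Rad21, Rec8, Rad21l, Stag3 and Esco2, in mouse testis. The genes were chosen by name, for their role in holding chromosomes together in mitosis and meiosis, out of the 18419 genes in the expression table, and all 8 were found there. Earlier results of these data were known when the choice was made. The table came from droplet single-cell RNA sequencing, which tags transcripts with molecular barcodes so that each captured molecule is counted once as a unique molecular identifier (UMI), and held 27060 cells from testes of ICR mice, an outbred stock. Group A0 received the vehicle alone, A10 received alginate oligosaccharides (AOS, short sugar chains made from a seaweed polymer) at 10 mg/kg body weight, B0 received busulfan, an alkylating drug that kills dividing germ cells, at 40 mg/kg, and BA10 received busulfan at 40 mg/kg and then AOS at 10 mg/kg. Per the methods of the study, male mice were 3 weeks old at the start and the cells of 6 mice of a group were combined. Each group is therefore 1 library without replicates, so no difference between groups could be tested, and the 95% intervals given below cover counting error only, not differences between animals or between captures.

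Cohesin is a ring that encircles sister chromatids. A pair of long SMC proteins (Smc3 with Smc1a, or with its germ cell form Smc1b) forms the ring, a kleisin closes it (Rad21, or the meiotic forms Rec8 and Rad21l), and a STAG protein, which in meiosis is mainly Stag3, binds the kleisin. Esco2 acetylates Smc3 during DNA replication, which makes the ring stable. In male meiosis the complexes with Rec8, Rad21l, Smc1b and Stag3 build the chromosome axes on which homologues pair and recombine, and Smc1b, Rec8, Rad21l and Stag3 are best known for that role.

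The libraries held 8941 cells (A0), 9682 (A10), 4659 (B0) and 3778 (BA10), with 25323535 to 150812974 UMIs in all and a median of 4214 UMIs per cell in B0 against 10948 to 17989 in the others. The cell with the fewest UMIs held 2985 in B0 and 9013 in BA10, so the libraries also differ in the lower limit of depth. Pairs of libraries shared 31 to 135 cell barcodes. Clustering without the cohesin genes gave 27 clusters, each named after germ or somatic cell markers or left unnamed. The early spermatocyte class, with 9 fixed markers, took 0 cells in every library, so no class below stands for that stage. It was the second class of the pachytene spermatocyte-like clusters 7 (0.348 against 0.605) and 24 (0.432 against 0.532). The peritubular myoid class also took 0 cells. Cluster 20, named spermatogonia-like with a marker score of 0.838, also scored 0.724 for early spermatocyte markers and is led by Stra8 among others, and cluster 1, named elongating spermatid-like, scored 0.405 against 0.388 for late spermatocyte markers. The late spermatocyte-like clusters 5, 6 and 21, like other named clusters, held 0 of their class's markers among their 10 leading genes. Clusters 5 and 6 were led by Ssxb genes among others, and cluster 6 shared Gm6588 with the round spermatid-like cluster 4. Whether these cells lie before or after the meiotic divisions was not tested. B0 held 2911 Leydig-like cells, 453 macrophage-like cells, 239 spermatogonia-like cells and 206 pachytene spermatocyte-like cells, whereas A0 held 0, 11, 0 and 1091 and BA10 held 49, 60, 13 and 1083. Pachytene spermatocyte-like cells came mainly from clusters 2, 3 and 7 in A0 and A10. In B0, 193 of the 206 were in cluster 24 and 13 in cluster 25, and in BA10, 409 were in cluster 24, 667 in cluster 25 and 7 in cluster 7. Late spermatocyte-like cells came mainly from clusters 0, 5 and 6 in A0 and A10, and 1627 of the 1628 of BA10 were in cluster 21. Round spermatid-like cells came mainly from clusters 4, 11, 13 and 14 in A0 and A10, and 187 of the 189 of BA10 were in cluster 15. RNA of other cells differed as well: Prm1, a protamine of elongating spermatids, was at 2833 CPM (UMIs per 1000000 UMIs) in the pachytene spermatocyte-like cells of A0 and at 3409, 5.54 and 57.9 CPM in those of A10, B0 and BA10, and Insl3, a Leydig cell hormone, was at 0.366, 0.599, 162 and 37.6 CPM. The part of this foreign RNA in the levels given below was not tested.

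The genes lie on chromosomes 2 (Rad21l), 5 (Stag3), 14 (Rec8 and Esco2), 15 (Rad21 and Smc1b), 19 (Smc3) and X (Smc1a) of the mm10 build. Smc1b spans chr15:85064689-85131964 on the minus strand with up to 25 exons in a transcript and contains a processed pseudogene on the opposite strand, Gm10923, and Smc1a, at chrX:152016428-152062694 on the plus strand, also with up to 25, likewise contains 1, Gm15267. The other members overlapped 0 annotated genes. Promoter sequences from RefSeq (GRCm38.p6, the same assembly) were found for 6 of the 8 genes, all but Rad21 and Esco2. The 250 bases before the start of 4 of them are shown because these genes carry the contrasts of expression described below: Smc1b and Stag3, whose levels followed each other most closely among the meiotic members; Rad21l, whose level was highest in the spermatogonia-like cluster; and Smc1a, which was high in somatic cells. Capitals mark matches of the short MYB core AACNG on either strand.
Smc1b, chr15:85131958-85132207, minus strand: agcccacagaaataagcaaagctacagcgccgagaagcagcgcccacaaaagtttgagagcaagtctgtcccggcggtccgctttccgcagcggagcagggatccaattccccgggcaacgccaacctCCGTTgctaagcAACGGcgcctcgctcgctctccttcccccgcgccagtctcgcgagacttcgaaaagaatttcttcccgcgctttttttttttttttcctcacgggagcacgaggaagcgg
Stag3, chr5:138280259-138280508, plus strand: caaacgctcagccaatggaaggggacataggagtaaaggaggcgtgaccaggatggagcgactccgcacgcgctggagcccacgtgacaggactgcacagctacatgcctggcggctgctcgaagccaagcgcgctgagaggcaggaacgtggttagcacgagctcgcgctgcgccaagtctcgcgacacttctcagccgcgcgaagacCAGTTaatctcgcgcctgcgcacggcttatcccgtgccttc
Rad21l, chr2:151668534-151668783, minus strand: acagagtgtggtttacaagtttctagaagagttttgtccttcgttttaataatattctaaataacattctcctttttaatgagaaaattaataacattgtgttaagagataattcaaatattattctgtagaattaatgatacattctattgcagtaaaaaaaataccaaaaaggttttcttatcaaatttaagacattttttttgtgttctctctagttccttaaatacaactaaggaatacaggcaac
Smc1a, chrX:152016178-152016427, plus strand: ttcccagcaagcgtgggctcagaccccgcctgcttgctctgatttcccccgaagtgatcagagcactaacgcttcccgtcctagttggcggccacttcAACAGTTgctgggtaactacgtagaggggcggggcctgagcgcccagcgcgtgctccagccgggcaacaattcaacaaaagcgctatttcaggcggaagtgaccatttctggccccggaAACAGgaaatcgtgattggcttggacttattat
The windows differ in base composition. Smc1b (58.0% G or C, 25 CG dinucleotides) and Stag3 (62.8%, 26) are rich in CG, Smc1a is close to them in G or C but holds fewer CG (56.8%, 16), and Rad21l is poor in both (25.6%, 1), against a median of 52.4% and 6 over the 32851 promoter windows of the same length. Of the windows not shown, Smc3 was as rich (64.4%, 26) and Rec8 held 56.0% and 10. An E2F site (GGCGGGAA, either strand) was in 0 of the 6 member windows and in 1.86% of all windows, and a STRA8-type site (CNCCTCAG, either strand) was in 0 of 6 and in 6.42%. The MYB core was in 5 of the 6, Rad21l being the exception, but also in 74.2% of all windows, and its matches overlap in the Smc1a window. The absence of these letters from a window says nothing of the factors themselves.

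Smc3, the SMC subunit of every cohesin ring, was at 112 CPM in A0 (95% interval 111 to 114). A10 stood at 98.4 (96.8 to 100), B0 at 92.1 (88.4 to 95.9) and BA10 at 39.0 (37.7 to 40.3). BA10 thus stood below the other 3 libraries, which were close together. Across clusters Smc3 varied widely within the germ line. It was highest in the spermatogonia-like cluster 20 (346 CPM, 313 to 382) and in the late spermatocyte-like cluster 6 (250 CPM, 243 to 256), whose intervals did not overlap, and it was lowest in the pachytene spermatocyte-like clusters 25 (5.29 CPM) and 3 (9.25 CPM). Round spermatid-like clusters lay between 104 and 232 CPM. Stag3, described below, was at its maximum in cluster 3.

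Smc1a, the SMC partner used by somatic cells, was at 0.942 CPM in A0 (0.793 to 1.11). A10 stood at 0.960 (0.807 to 1.13), B0 at 47.6 (44.9 to 50.4) and BA10 at 1.65 (1.40 to 1.94). Only B0 was high. Somatic-like clusters held 51.0 (macrophage-like), 57.3 (Sertoli-like), 66.8 (Leydig-like) and 158 CPM (endothelial-like, 111 to 219, from 56 cells). In the germ line the spermatogonia-like cluster 20 reached 50.8 CPM (38.7 to 65.5), but spermatogonia-like cells named cell by cell from their own marker UMIs held 9.35 CPM. The unnamed cluster 12, which is led by Stra8, Rhox13 and Esco2, held 8.93 CPM, and the other germ-named clusters stayed between 0.0531 and 1.74 CPM. Smc1a is on the X chromosome, which as background is known to be silenced in pachytene spermatocytes. Stag2, a somatic STAG gene also on the X chromosome, was at 35.3 CPM in cluster 20 and between 0.200 and 2.65 CPM in the pachytene spermatocyte-like clusters. In the late spermatocyte-like clusters 0, 5 and 6 it was at 0.738, 4.49 and 11.8 CPM. It was between 11.0 and 19.8 CPM in the round spermatid-like clusters, between 1.54 and 9.39 CPM in the elongating spermatid-like clusters and at 56.3 CPM in Leydig-like cells. Smc1a stood at 0.809 CPM in round spermatid-like cells. The part of X silencing in the levels of either gene was not tested.

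Smc1b, the germ cell partner of Smc3, was at 309 CPM in A0 (307 to 312). A10 stood at 299 (296 to 302), B0 at 135 (131 to 140) and BA10 at 220 (217 to 223). A0 and A10 were close together and both busulfan libraries were lower. It was highest in the pachytene spermatocyte-like cluster 7 (497 CPM, 486 to 508), followed without overlap by the round spermatid-like cluster 11 (423 CPM, 414 to 432), and stood at 327 CPM in the spermatogonia-like cluster 20. The lowest germ cluster was the elongating spermatid-like cluster 10 (34.3 CPM) and the lowest of all was the Leydig-like cluster (6.89 CPM). After each cell was thinned to 2500 UMIs, 62.8% of pachytene spermatocyte-like cells of A0 and 61.6% of round spermatid-like cells of A0 held a Smc1b UMI, against 1.10% of Leydig-like cells of B0 (0.753 to 1.55%). The median depths before thinning were 21044, 13618 and 4046 UMIs, and the unthinned shares were 99.0, 98.8 and 2.10%. Free RNA alone may give the share in Leydig-like cells of B0, but that share does not measure free RNA in A0. Over all cells Prm1 was at 12310 CPM in A0 and at 35.0 CPM in B0.

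**Figure D1:**
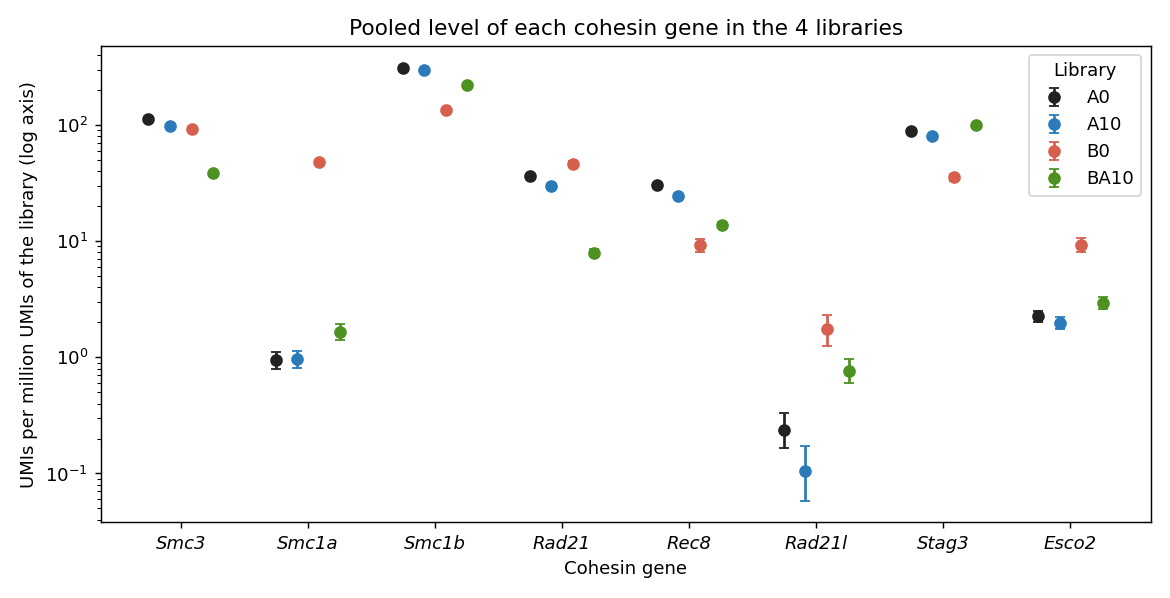
Each point is the level of a cohesin gene (x axis) in a library, as UMIs per 1000000 UMIs on a log axis, with its exact Poisson 95% interval; colours are the 4 libraries. A0 and A10 lie close together except for the rare Rad21l, B0 stands far above the others for Smc1a (47.6) and BA10 is lowest for Smc3 (39.0) and Rad21 (7.98).

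Rad21, the kleisin of mitotic cells, was at 36.2 CPM in A0 (35.2 to 37.2). A10 stood at 29.9 (29.0 to 30.8), B0 at 45.8 (43.2 to 48.5) and BA10 at 7.98 (7.42 to 8.59). BA10 was again the lowest. Its 2 high points were separate: the spermatogonia-like cluster 20 held 141 CPM (120 to 165) and the round spermatid-like clusters 13 and 14 held 147 (142 to 152) and 113 CPM, with overlapping intervals for clusters 13 and 20. Pachytene spermatocyte-like clusters were low, from 3.46 CPM in cluster 25 to 15 in cluster 2, and the Leydig-like cluster held 50.4 CPM.

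Rec8, the meiotic kleisin that is protected at centromeres until the second division, was at 30.5 CPM in A0 (29.6 to 31.4). A10 stood at 24.7 (23.9 to 25.5), B0 at 9.24 (8.09 to 10.5) and BA10 at 13.9 (13.1 to 14.7). Both libraries without busulfan were above both with it over all cells, but in cells with at least 9013 UMIs, the lower limit of BA10, B0 stood at 25.4 CPM (21.7 to 29.4) beside 25.0 in A10. In these cells Rec8 was still higher in A0, at 31.1 CPM (30.2 to 32.0), without overlap with B0, and it was at 13.9 CPM in BA10. Its transcript was low in pachytene spermatocyte-like cells, from 0.882 CPM in cluster 24 to 12.0 in cluster 2, ranged from 4.73 CPM (cluster 0) over 19.8 (cluster 21) and 24.6 (cluster 5) to 55.2 CPM (cluster 6) in the late spermatocyte-like clusters, and was highest in the round spermatid-like clusters 4 (73.2 CPM, 70.0 to 76.6) and 15 (69.8 CPM, 62.0 to 78.3), whose intervals overlapped. The spermatogonia-like cluster held 10.3 CPM. Thinned to 2500 UMIs, Rec8 was seen in 15.6% of round spermatid-like cells and in 1.19% of pachytene spermatocyte-like cells of A0, and in 0.241% of Leydig-like cells of B0. As for Smc1b, the last share does not measure free RNA in A0.

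Rad21l, the kleisin found only in meiosis and known from early prophase, was rare, with 0.239 CPM in A0 (0.167 to 0.331, 36 UMIs). A10 held 0.104 (0.0584 to 0.172, 15 UMIs), B0 1.74 (1.26 to 2.33, 44 UMIs) and BA10 0.767 (0.598 to 0.969, 70 UMIs). B0 was highest although it had the fewest UMIs in total. The spermatogonia-like cluster 20 (21.5 CPM, 13.9 to 31.8) and the unnamed cluster 12 (10.4 CPM, 7.87 to 13.5) had the highest levels. Their intervals did not overlap with each other or with those of other clusters, except the endothelial-like cluster 23, where 0 UMIs allowed up to 16.2 CPM. They were followed by the macrophage-like cluster with 2.65 CPM from 9 UMIs, the Sertoli-like cluster with 2.08 CPM from 2 UMIs and the pachytene spermatocyte-like cluster 24 with 1.98 CPM from 18 UMIs. Clusters 20 and 12 held 25 and 57 Rad21l UMIs, while all pachytene spermatocyte-like cells together held 39 and late spermatocyte-like cells 13. Stra8, which marks the entry into meiosis, is among the 10 leading genes of both clusters 20 and 12.

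Stag3, the STAG subunit of meiotic cohesin, was at 88.3 CPM in A0 (86.8 to 89.8). A10 stood at 80.0 (78.5 to 81.4), B0 at 35.5 (33.3 to 37.9) and BA10 at 101 (98.8 to 103). It was the only member whose pooled level was lower in B0 than in the other 3 libraries while BA10 was the highest. Pachytene spermatocyte-like clusters held 113 to 142 CPM, with the maximum in cluster 3 (138 to 147) above cluster 7 (129 CPM, 123 to 135) without overlap. Late spermatocyte-like clusters held 93.8 to 126 CPM, and the level was lower after meiosis, at 48.2 to 80.7 CPM in round spermatid-like clusters and 11.5 to 66.7 CPM in elongating spermatid-like clusters, with 5.03 CPM in Leydig-like cells.

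Esco2, the acetyltransferase of S phase, was at 2.26 CPM in A0 (2.03 to 2.51). A10 stood at 1.97 (1.75 to 2.21), B0 at 9.28 (8.13 to 10.6) and BA10 at 2.95 (2.60 to 3.32). B0 was the highest. The level was 134 CPM (114 to 157) in the spermatogonia-like cluster 20, 38.7 in cluster 12, 17.5 in cluster 7 and 12.8 in cluster 24, and at most 2.88 CPM in every other germ-named cluster. Clusters 7 and 24 shared 6 of their 10 leading genes, among them Tex101 and Ccnb1ip1, and both held more Esco2 than the other pachytene spermatocyte-like clusters (0.588 to 1.26 CPM). When spermatogonia-like cells were named cell by cell, not by cluster, the levels in them became 18.1 CPM for Esco2, 2.34 for Rad21l, 68.2 for Rad21, 179 for Smc3 and 37.6 for Rec8, while Smc1b (319) and Stag3 (65.2 against 64.6 CPM) were close to those of cluster 20.

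**Figure D2:**
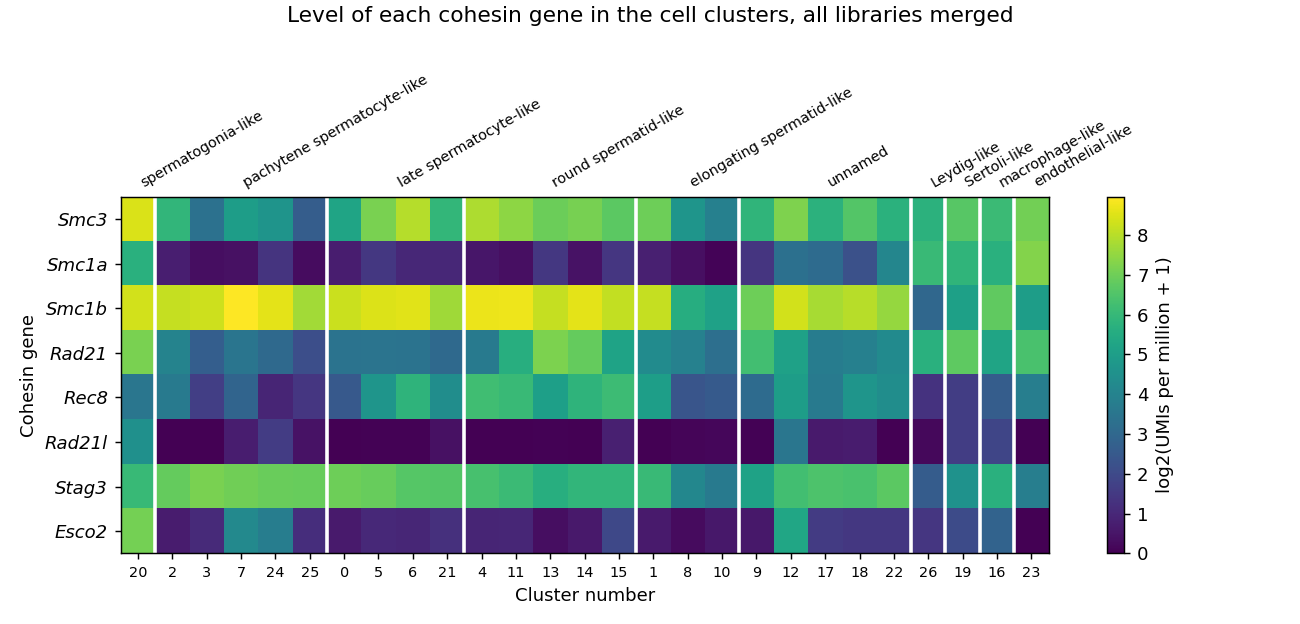
Colour gives the level of each cohesin gene (rows) in each of 27 clusters (columns, by number, grouped by class) as log2(UMIs per 1000000 + 1), all libraries merged. Smc1b is above 200 in every spermatocyte-like cluster, whereas Smc1a is high in the somatic-like clusters and in cluster 20 (50.8, but 9.35 in spermatogonia-like cells named cell by cell), and Rad21l and Esco2 peak in clusters 20 and 12.

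Because UMIs of different genes may be captured with different success, paralogs were compared as shares between cell classes and not with each other. Smc1b made up 86.6% of the UMIs of Smc1a and Smc1b in spermatogonia-like cells (83.0 to 89.6%, 439 UMIs), 99.6 to 99.9% in spermatocyte- and spermatid-like cells and 9.35% in Leydig-like cells. Rec8 made up 5.97% of the kleisin UMIs (Rec8, Rad21l and Rad21) in spermatogonia-like cells, 33.4% in pachytene spermatocyte-like cells, 72.7% in late spermatocyte-like cells and 44.8% in round spermatid-like cells. The Rad21l share went from 12.4% in spermatogonia-like cells (8.21 to 17.8%) to 3.75% in pachytene spermatocyte-like cells and 0.347% in late spermatocyte-like cells. Stag3 held 19.0% of the UMIs of Stag1, Stag2 and Stag3 in spermatogonia-like cells, where Stag1 stood at 239 CPM, 80.4% in pachytene spermatocyte-like cells, 87.9% in late spermatocyte-like cells and 5.14% in Leydig-like cells. With libraries merged and cells named by cluster, the germ line share of Smc1b, Rec8 and Stag3 was thus lowest in the spermatogonia-like cells and that of Rad21l highest. Of these 253 cells 239 were from B0, however, and within B0 the order was not the same for the kleisins: Rad21l held 13.3% in spermatogonia-like cells (8.68 to 19.1%) and 24.3% in pachytene spermatocyte-like cells (11.8 to 41.2%, 9 of 37 UMIs), and Rec8 held 5.52% (2.68 to 9.93%) and 2.70% (0.0684 to 14.2%, 1 of 37 UMIs), with overlapping intervals in both cases. The Smc1b and Stag3 shares kept their order within B0, at 85.6 and 98.9% for Smc1b and 16.3 and 49.4% for Stag3. Shares are not given for cells named cell by cell, but the levels behind them moved. In spermatogonia-like cells named so, Rec8, Rad21l and Rad21 were at 37.6, 2.34 and 68.2 CPM, against 10.3, 21.5 and 141 by cluster. Smc1a was at 9.35 against 50.8 CPM. The lower Rec8 share in round spermatid-like than in late spermatocyte-like cells was that of A0 (44.4 and 74.5%) and A10 (43.1 and 71.0%). In BA10 the shares were 71.3% (66.5 to 75.8%) and 72.1% (69.1 to 75.0%), with overlapping intervals.

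**Figure D3:**
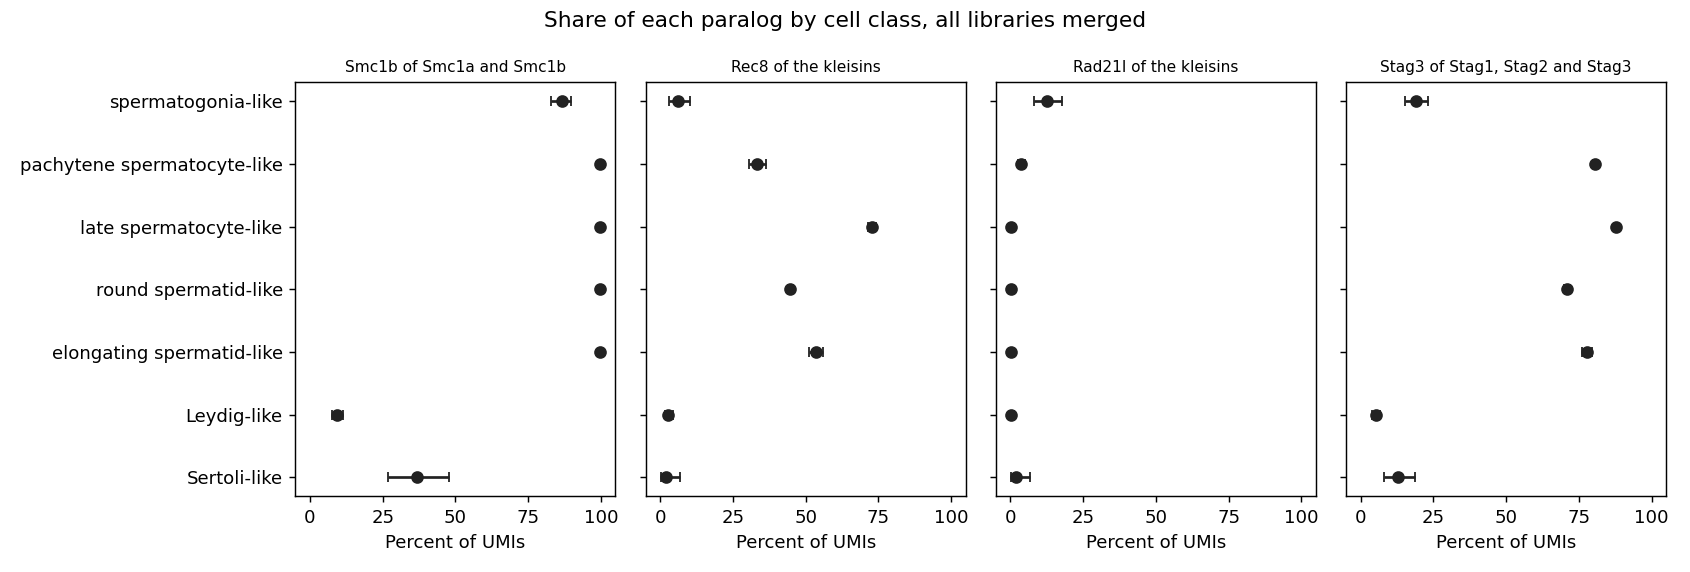
Each point is the percentage of a family's UMIs (x axis) that came from the named paralog in a cell class (y axis), all libraries merged, with its exact binomial 95% interval. Smc1b holds 86.6% or more in every germ class and 9.35% in Leydig-like cells, while the merged Rec8 share is highest (72.7%) in late spermatocyte-like cells, although within BA10 it overlaps that of round spermatid-like cells (72.1 and 71.3%).

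The first comparison set AOS beside the vehicle in mice without busulfan (A10 over A0). All members but the rare Rad21l, which had 0.104 CPM in A10 and 0.239 in A0, differed by little. Log2 ratios are of CPM with 1 CPM added here and in all that follows, while their counting intervals are without it, so that the ratio of a gene with few CPM can be closer to 0 than its interval. The ratios were -0.29 for Rec8, -0.27 for Rad21, -0.19 for Smc3, -0.17 for Rad21l (interval -2.17 to -0.29), -0.14 for Stag3, -0.14 for Esco2, -0.05 for Smc1b and 0.01 for Smc1a. The median was -0.15, against -0.03 over the 9024 genes that had a UMI in 5% or more of the cells of 1 or both libraries. Of the 8 members, 0 were at least 2-fold higher and 0 at least 2-fold lower, where 0.0443% and 0.0665% of all genes tested were. The counting intervals excluded 0 for Rec8, Rad21l, Rad21, Smc1b, Smc3 and Stag3, but mice were pooled and the spread between animals is not known. Prm1 stood at 12310 CPM in A0 and 16640 in A10, and its part in these small differences was not tested. Within classes Stag3 was at -0.17 in pachytene spermatocyte-like, -0.17 in late spermatocyte-like, -0.18 in round spermatid-like and -0.20 in elongating spermatid-like cells. Smc3, Rec8 and Rad21 did not keep their sign in each class. In pachytene spermatocyte-like cells Smc3 was at 0.14 (-0.02 to 0.30) and Rec8 at 0.05 (-0.29 to 0.40), and in late spermatocyte-like cells Rad21 was at 0.04 (-0.16 to 0.26), with intervals that include 0. With other ways of forming the classes, these Smc3 (-0.08 to -0.02) and Rec8 (-0.16 to -0.11) ratios were negative in 4 of 4. The Rad21 ratio took the other sign in 3 of 4.

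The second comparison set busulfan beside the vehicle (B0 over A0). The meiotic genes Rec8, Stag3 and Smc1b were lower in B0, with log2 ratios of -1.62, -1.29 and -1.19, and Smc1a, Esco2 and Rad21l were higher, with 4.65, 1.66 and 1.14. Rad21 (0.33) and Smc3 (-0.28) differed by less. Members at least 2-fold higher numbered 3 and lower 3, where 39.2% and 23.3% of the 11154 genes tested were. Of the 6 members seen in 5% of cells, as those genes were, 1 was higher and 3 were lower. The median was 0.02 against 0.32 for all genes. Rad21l and Esco2 were seen in under 5% of cells of both libraries, and so were not among the genes tested. Without the added 1 CPM the counting intervals lay beyond the ratios given, from 5.41 to 5.92 for Smc1a, from 1.79 to 2.28 for Esco2 and from 2.2 to 3.54 for Rad21l. The pooled ratios moved under a limit on depth, which changed the cell mix at the same time. In cells with at least 9013 UMIs, the lower limit of BA10, only 448 B0 cells remained, of which 8 were Leydig-like, 52 pachytene spermatocyte-like, 0 spermatogonia-like and 371 unnamed, and the ratios became -0.28 for Rec8, -0.17 for Stag3, 0.02 for Smc1b, 1.94 for Smc1a, 0.49 for Esco2, 0.63 for Rad21l, -1.17 for Rad21 and -0.02 for Smc3. Rad21 thus went from higher to at least 2-fold lower in B0 (16.0 CPM against 37.3 in A0), and the Smc1b levels (319 against 314 CPM) had overlapping intervals. Different numbers of cells of a type and different RNA content per cell cannot be told apart in these pooled sums.

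The third comparison set AOS after busulfan beside busulfan alone (BA10 over B0). Smc1a (-4.19), Rad21 (-2.38), Esco2 (-1.38) and Smc3 (-1.22) were at least 2-fold lower in BA10 and Stag3 (1.48) was at least 2-fold higher, with Smc1b at 0.69, Rec8 at 0.54 and Rad21l at -0.63. The interval of Smc1a without the added 1 CPM was -5.10 to -4.60, that of Esco2 -1.91 to -1.40 and that of Rad21l -1.75 to -0.60. This made 1 of 8 higher and 4 of 8 lower, where 17.8% and 35.7% of 11147 genes tested were. Of the 7 members seen in 5% of cells, as those genes were, 1 was higher and 4 were lower. The median of all 8 members was -0.93 against -0.26 for the genes tested. At or above the common limit of 9013 UMIs the values were -1.45 for Smc1a, -0.92 for Rad21, -0.14 for Esco2, -1.50 for Smc3 and 0.34 for Stag3, and the sign turned for Smc1b (-0.54) and Rec8 (-0.83). Rad21l, which has few UMIs, was at -0.09. Smc3 was the member whose ratio moved least. Over all cells, 3 of the 8 members (Stag3, Rec8 and Smc1b) were lower in A10 than in A0 and higher in BA10 than in B0, both beyond counting error, and 0 of the 8 the other way round, where 21.9% and 9.9% of the 8483 genes seen in 5% of cells in both comparisons were. Rad21l, Smc1a and Esco2 did not pass that filter for A10 over A0, so the like count is 3 of 5.

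The last comparison set BA10 beside A0, both of which hold mostly germ cells. Rad21 (-2.05), Smc3 (-1.50) and Rec8 (-1.08) were at least 2-fold lower in BA10, Smc1b was at -0.49, and Stag3 (0.19), Esco2 (0.28), Smc1a (0.45) and Rad21l (0.51) were higher. Without the added 1 CPM the interval of Rad21l, at 0.767 CPM against 0.239, was 1.08 to 2.31 and so wholly past 2-fold, and that of Smc1a was 0.47 to 1.15. With it, 0 of 8 were higher and 3 of 8 lower by at least 2-fold, where 16.7% and 18.2% of 10534 genes tested were. Of the 6 members seen in 5% of cells, as those genes were, 0 were higher and 3 lower. The median of all 8 members was -0.15 against 0.38 for the genes tested. Each comparison, the first included, shares a library with others, so their ratios are not independent.

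**Figure D4:**
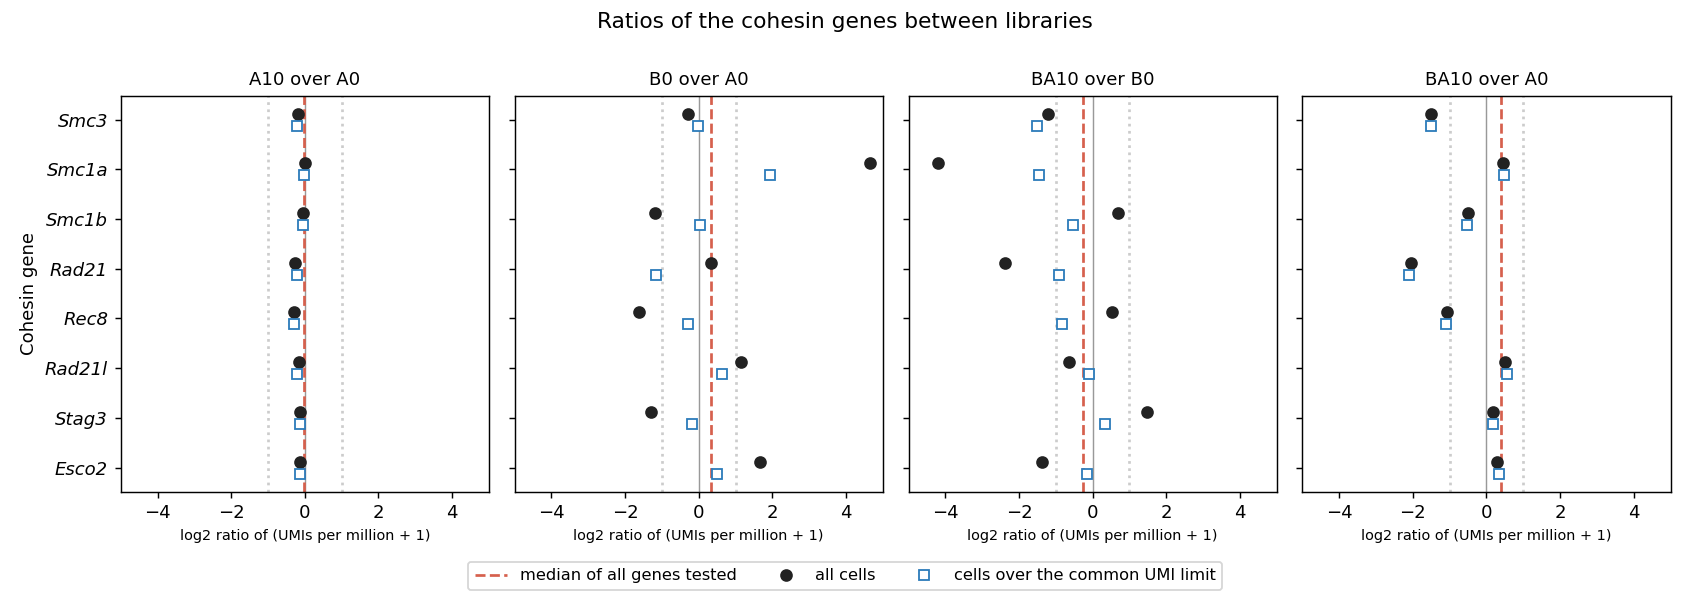
Log2 ratios of each cohesin gene (y axis) in the 4 comparisons of libraries, over all cells (filled points) and over cells with at least 9013 UMIs (open squares); the dashed line is the median of all genes tested and dotted lines mark 2-fold. Ratios lie near 0 for A10 over A0, and for B0 over A0 the Smc1a ratio goes from 4.65 to 1.94 under the common limit.

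Levels were next compared within classes, which still hold different clusters in different libraries. In pachytene spermatocyte-like cells Smc3 was at 22.4 CPM in A0. A10 stood at 24.7, B0 at 70.9 and BA10 at 6.92, and the counting intervals of B0 and BA10 overlapped with none of the others. The log2 ratio of BA10 over A0 was -1.56. In late spermatocyte-like cells Smc3 was at 140 CPM in A0, 128 in A10 and 59.3 in BA10 (-1.23 for BA10 over A0), and in round spermatid-like cells at 181, 162 and 103 CPM (-0.81). BA10 was thus the lowest library for Smc3 in each of these 3 classes. By cluster, the Smc3 level of BA10 in the late spermatocyte-like cluster 21 (59.4 CPM) lay within the range of clusters 0, 5 and 6 of A0 (38.0 to 263 CPM), and that in the round spermatid-like cluster 15 (103 CPM) lay below the range of clusters 4, 11, 13 and 14 of A0 (131 to 241 CPM).

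Smc1b within the same classes was at 370, 346, 442 and 239 CPM (pachytene spermatocyte-like cells of A0, A10, B0 and BA10), at 351, 336 and 203 CPM (late spermatocyte-like cells of A0, A10 and BA10) and at 379, 373 and 272 CPM (round spermatid-like cells). The BA10 over A0 ratios were -0.63, -0.79 and -0.48. Stag3 differed less, at 142, 126, 131 and 117 CPM in pachytene spermatocyte-like cells, 120, 107 and 93.6 CPM in late spermatocyte-like cells and 69.0, 61.0 and 57.0 CPM in round spermatid-like cells, with BA10 over A0 ratios of -0.29, -0.36 and -0.27. The pooled Stag3 level, which was highest in BA10, thus went with a level within classes that was no higher there than in A0.

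Rad21 in pachytene spermatocyte-like cells was at 9.08 CPM in A0. A10 stood at 7.68, B0 at 15 and BA10 at 3.93 (-1.03 for BA10 over A0). In round spermatid-like cells Rad21 was at 78.1 CPM in A0, 68.9 in A10 and 28.3 in BA10 (-1.44). The 4 main round spermatid-like clusters of A0 ranged from 13 CPM (cluster 4) to 149 CPM (cluster 13), and cluster 15 of BA10, which shared 0 or 1 of 10 leading genes with each of them, held 28.4 CPM, within that range. In late spermatocyte-like cells Rad21 was at 9.56 CPM in A0 and 7.32 in BA10 (-0.34). Rec8 in pachytene spermatocyte-like cells of A0, A10, B0 and BA10 was at 4.83, 5.02, 0.554 (1 UMI) and 1.68 CPM, and the lower level of B0 and BA10 went with a lower level of Prm1 there, whose part was not tested. In round spermatid-like cells, where Rec8 was highest, A0 stood at 62.3 CPM, A10 at 52.1 and BA10 at 70.9. Esco2 in pachytene spermatocyte-like cells was highest in B0, at 18.3 CPM, against 6.26 in A0, 4.69 in A10 and 3.26 in BA10.

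Counted over the 8 genes in pachytene spermatocyte-like cells, BA10 over A0 gave 0 members at least 2-fold higher and 3 lower (Smc3, Rec8 and Rad21), where 3.38% and 13.4% of 10217 genes tested were. All 3 were among the 6 members seen in 5% of these cells. B0 over A0 gave 4 higher (Rad21l, Smc1a, Smc3 and Esco2) and 1 lower (Rec8), against 25.4% and 18.0% of 10214. Of the 6 members seen in 5% of these cells, as the genes tested were, 2 were higher (Smc3 and Esco2) and 1 was lower (Rec8). Rad21l rests on 9 UMIs against 6, Smc1a on 9 against 9 and Rec8 on 1 against 132. BA10 over B0 gave 0 higher and 5 lower (Smc3, Smc1a, Esco2, Rad21l and Rad21), against 10.7% and 30.4% of 9963, and 3 lower of the 6 members seen in 5% of cells (Smc3, Esco2 and Rad21). In late spermatocyte-like cells BA10 over A0 gave 0 higher and 1 lower (Smc3), against 4.13% and 7.84% of 9275, and in round spermatid-like cells it gave 1 higher (Esco2, 11 UMIs in BA10) and 1 lower (Rad21), against 7.78% and 6.47% of 9617. In these classes 5 and 6 members were seen in 5% of cells, and the counts among them were the same. With other ways of forming the classes, the Smc3 ratio for BA10 over A0 in pachytene spermatocyte-like cells stayed past 2-fold in 4 of 4 (-1.65 to -1.09), while Rec8 did so in 1 of 4 (-1.02 to -0.68) and Rad21 in 0 of 4 (-0.89 to -0.67). For B0 over A0, Smc3 (0.81 to 2.09), Esco2 (0.30 to 1.21) and Rec8 (-1.73 to -0.42) each stayed past 2-fold in 2 of 3. For BA10 over B0, Smc3, Rad21 and Smc1a stayed so in 3 of 3, and Esco2 (-2.04 to -0.64) and Rad21l (-1.93 to -0.55) in 2 of 3. Medians of the members for BA10 over A0 were -0.70, -0.35 and -0.04 in the 3 classes, beside -0.03, 0.02 and 0.14 for all genes tested. With 8 genes a single member is a large part of such a count, and the genes were chosen with results of these data known.

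**Figure D5:**
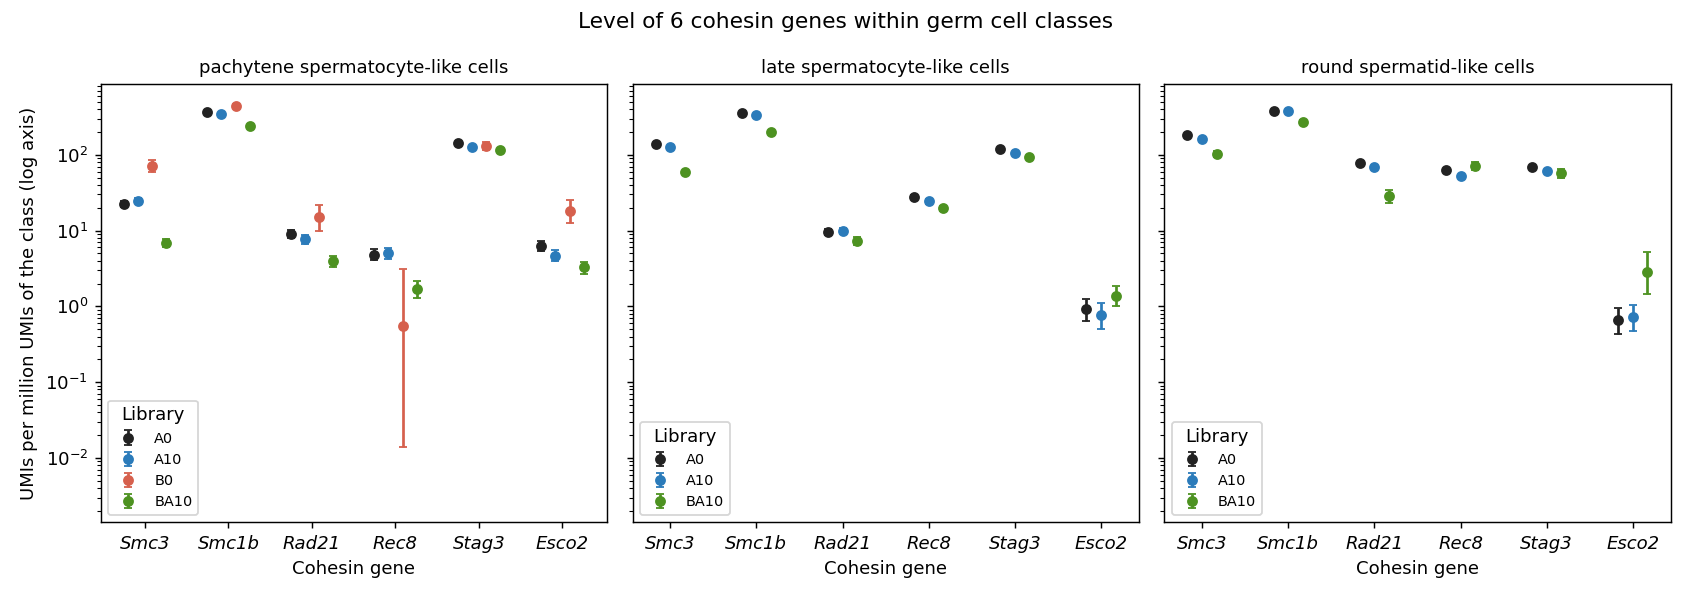
Levels of 6 cohesin genes (x axis) within 3 germ cell classes, as UMIs per 1000000 UMIs of the class on a log axis, with exact Poisson 95% intervals; colours are libraries with at least 50 cells of the class. Smc3 is lowest in BA10 in each class (6.92, 59.3 and 103), whereas Stag3 differs little between libraries.

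Since the classes are made of different clusters in different libraries, 2 closer views were added after the data were seen. In cluster 24, which held 193 cells of B0 and 409 of BA10, Smc3 was at 86.6 CPM in B0 and 12.2 in BA10 (log2 ratio -2.73, interval -3.23 to -2.43), Rad21 at 19.2 and 4.98, Esco2 at 23.4 and 10.8, Smc1b at 478 and 368 and Stag3 at 138 and 116. The median of all genes tested in that cluster was -0.24. Its cells had a median depth of 4863 UMIs in B0 and 18120 in BA10, and the part of depth in these ratios was not tested. In cluster 7 of A0, which shares 6 of 10 leading genes with cluster 24, Smc3 was at 31.3 CPM, Rad21 at 11.0, Esco2 at 19.9, Smc1b at 531 and Stag3 at 134. The Smc3 level of cluster 7 thus lay between those of cluster 24 in BA10 and in B0. In cluster 3 of A0 and cluster 25 of BA10, which share 2 leading genes, Smc3 was at 8.27 and 5.17 CPM, Smc1b at 309 and 205, and Stag3 at 151 and 117.

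Unnamed clusters that libraries share gave the same order for Smc3. In cluster 12 (113 cells of A0 and 115 of BA10) it was at 197 CPM in A0 and 77.7 in BA10, with log2 ratios of -1.33 for Smc3, -1.67 for Rad21, -1.18 for Rec8, -0.54 for Smc1b and 0.42 for Stag3, beside a median of 0.30 for all genes tested. Of the 8 members there, 0 were at least 2-fold higher and 5 lower, where 23.7% and 20.9% of 11625 genes tested were. The median of the members was -1.12. In cluster 18 (507 cells of B0 and 416 of BA10, led by haemoglobin and Sertoli cell genes) Smc3 was at 126 and 64.5 CPM, with -0.96 for Smc3, -0.59 for Smc1b and 0.32 for Stag3, beside a median of -0.06. In cluster 17 (55 cells of B0 and 119 of BA10, led by stromal genes) Smc3 was at 150 and 31.3 CPM (-2.23, beside a median of -0.36). In clusters 12, 17, 18 and 24 Smc3 and Smc1b were lower in BA10. The interval of the Stag3 ratio was 0.09 to 0.77 in cluster 12, -0.23 to 0.89 in cluster 17, 0.15 to 0.50 in cluster 18 and -0.47 to -0.01 in cluster 24, so that cluster 17 gave no direction for Stag3 and cluster 24 the opposite one.

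A small number of cells named after somatic markers held germ cell cohesin. The 60 macrophage-like cells of BA10 held Smc1b at 181 CPM and Stag3 at 114, against 46.4 and 11.3 in the 453 of B0, while Smc1a (5.86 against 80.9), Rad21 (6.70 against 55.2) and Smc3 (31.0 against 79.9 CPM) were lower in them. Their median depth was 14277 against 4009 UMIs. Esco2 was lower as well (log2 ratio -1.95). Of the 8 members, 2 were at least 2-fold higher in BA10 and 4 lower, and of the 6 seen in 5% of these cells 2 and 3. Of the 11611 genes tested, 28.0% were higher and 38.6% lower by as much, with a median of -0.36. Doublets were kept, and their part in these levels was not tested.

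Thinned to 2500 UMIs, a cell of A0 held on average 1.08 of the 8 transcripts, against 0.986 for A10, 0.656 for B0 and 0.845 for BA10. The spermatogonia-like cells of B0 held most, with a mean of 1.93 and 28.5% of cells with at least 3 of the 8. Within pachytene spermatocyte-like cells the means were 1.06 in A0, 0.978 in A10, 1.48 in B0 but 0.798 in BA10, and within late spermatocyte-like cells 1.25, 1.17 and 0.842 in A0, A10 and BA10. The share of cells with a Smc3 UMI after thinning was, like its CPM, highest in B0 and lowest in BA10, at 6.97% of pachytene spermatocyte-like cells in A0 (5.53 to 8.64%) and 6.65% in A10 (5.32 to 8.18%), against 31.6% in B0 (25.3 to 38.4%) and 1.94% in BA10 (1.20 to 2.95%). The intervals of A0 and A10 overlapped, and their order was the opposite of that of the CPM. These cells had median depths of 21044, 20991, 5098 and 32155 UMIs before thinning, and unthinned shares from 19.0% in BA10 to 42.2% in B0.

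Of 23 other genes listed for loading, releasing or protecting cohesin, 22 were in the table and 19 were seen in at least 5% of cells. For A10 over A0, 0 were past 2-fold in either direction. For B0 over A0, 8 were higher, among them the STAG genes Stag2 (2.23) and Stag1 (1.83), the Smc3 deacetylase Hdac8 (1.91), Sgo1, a protector of centromeric cohesin (1.84), and Pds5a (1.59) and Pds5b (1.5), which regulate release, and 4 were lower: Dscc1 (-2.21), Plk1 (-1.26), Meikin (-1.14) and Bub1 (-1.11). The other 2 that were higher were the boundary factor Ctcf (1.17) and the loader subunit Mau2 (1.07). For BA10 over B0, 5 were higher, namely Plk1 (1.78), Meikin (1.59), Aurkb (1.5), the securin Pttg1 (1.48) and Cdca5 (1.13), and 8 were lower, with Stag2 at -3.71 and Stag1 at -2.08. For BA10 over A0, Aurkb (1.10) was higher and Dscc1 (-2.03) and Stag2 (-1.48) were lower. Most of these calls were lost in cells with at least 9013 UMIs. That limit left 448 cells of B0, of which 8 were Leydig-like. The share of all genes past 2-fold at this limit is not given, so the loss cannot be read as particular to these genes. For B0 over A0, 1 of the 8 remained higher, Pds5b (1.04), with Stag2 at 0.45 and Stag1 at 0.85, and 0 of the 4 remained lower, with Plk1 at 0.11, Meikin at 0.07, Bub1 at -0.05 and Dscc1 at -0.71. For BA10 over B0, 0 of the 5 remained higher (0.21 to 0.65) and 2 of the 8 lower, Stag2 (-1.96) and Stag1 (-1.11), while all 3 calls of BA10 over A0 remained. Hdac8 and Sgo1 were seen in under 5% of cells. Among the 19 genes that were seen in 5%, over cells of any depth, 31.6% were higher and 21.1% lower for B0 over A0 (39.2% and 23.3% of all genes tested), 26.3% and 31.6% for BA10 over B0 (17.8% and 35.7%), and 5.26% and 10.5% for BA10 over A0 (16.7% and 18.2%).

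Over the 27 clusters, described without a test since clusters share libraries and depth, Smc1b and Stag3 were the meiotic pair with the closest patterns (Pearson r of log2 levels 0.91). The r of Rad21l and Esco2 was 0.92, but the median Rad21l level over clusters was 0.0973 CPM. That r thus rests mainly on clusters 20 and 12, where both genes were highest. Rec8 was closest to Smc3 (0.73) and unlike Rad21l (-0.13). For each member the gene with the highest r was picked out of 13390 compared, so a high r is no surprise. Those genes were Pnoc for Rec8 (0.97), Xlr4a for Rad21l (0.97), Parn for Rad21 (0.94), Tex9 for Smc1b (0.94), Prrc2b for Smc1a (0.98), Fam208b for Smc3 (0.92), Dxo for Stag3 (0.97) and Lrr1 for Esco2 (0.95). For Stag3 the next was Hsf2bp (0.97), a meiotic recombination gene, and for Esco2 it was the germ cell gene Dazl (0.94).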

How the data were processed

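Testis cells from 4 groups of mice, 1 library each, had been sequenced by a droplet method. The submitters' processing notes name Cell Ranger 2.2.0 and mm10. The authors deposited natural log values, the natural log of 1 plus 10000 times the share of a gene in the UMIs of its cell. UMIs were recovered from these values (100% whole within 0.001) and summed. Levels are UMIs per 1000000 (CPM) with exact Poisson intervals, shares have exact binomial (Clopper-Pearson) intervals, and log2 ratios have 1 CPM added while their intervals do not. All intervals are at 95%. No test was possible with 1 library per group.

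Cells were clustered with scanpy 1.11.5 (2000 variable genes without the 8 members and the pathway list, 30 components, 15 neighbours, Leiden resolution 1, no alignment of libraries). A cluster took the class with the highest mean marker level, and stayed unnamed where its 10 leading genes held more markers of another class, or where under 3 markers were seen in 10% of its cells. A further rule, leading genes of another cell type, was added after the data were seen. Doublets were kept and no caller was run. Libraries were compared within a class where each had at least 50 cells. Genes named are the 8 members, pathway genes past 2-fold, the closest genes over clusters, and marker genes needed for a check. The members and lists were chosen with earlier results of these data known. The calculation of ratios was tested only on simulated pooled counts of the more abundant genes. That check does not cover rare genes, depth, cell mix or free RNA. Gene models were from GENCODE M21 and promoters from RefSeq.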

Additional observations from a re-analysis of the deposited data

Results flagged for a closer look

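For 3 of the 8 cohesin genes AOS went with a lower level in mice without busulfan and with a higher level after busulfan, each beyond counting error in the pooled libraries. Of the 8483 genes seen in 5% of cells in both comparisons, 21.9% did the same and 9.9% did the opposite. Rad21l, Smc1a and Esco2 did not pass that filter for A10 over A0, so the like count of members is 3 of 5. For Stag3 the log2 ratio was -0.14 for A10 over A0 and 1.48 for BA10 over B0, a difference of 1.62. For Rec8 the ratios were -0.29 and 0.54, a difference of 0.83, and for Smc1b they were -0.05 and 0.69, a difference of 0.74. Each group was 1 library, so the difference was not tested. In cells with at least 9013 UMIs the BA10 over B0 ratios were 0.34 for Stag3, -0.83 for Rec8 and -0.54 for Smc1b, so that only Stag3 kept opposite directions. In pachytene spermatocyte-like cells the BA10 over B0 ratio was -0.17 for Stag3, -0.89 for Smc1b and 0.79 for Rec8, the last from 1 UMI in B0 with an interval of -0.93 to 6.93. With other ways of forming the classes, the ratio took the other sign in 1 of 3 for Stag3 (-0.19 to 0.20) and for Rec8 (-0.60 to 0.86), and in 0 of 3 for Smc1b. In the shared clusters 17 and 18 it was 0.30 (interval -0.23 to 0.89) and 0.32 (0.15 to 0.50) for Stag3, 0.05 (-1.31 to 1.77) and -0.53 (-0.88 to -0.23) for Rec8, and -0.32 (-0.62 to -0.02) and -0.59 (-0.69 to -0.50) for Smc1b, the last against the pooled direction in both. In the shared cluster 24 Stag3 (-0.24, interval -0.47 to -0.01) and Smc1b (-0.38, -0.50 to -0.26) were lower in BA10, and Rec8 had 0 UMIs in B0 and 7 in BA10. B0 held 2911 Leydig-like cells and BA10 held 49, and the part of the cell mix in these differences was not tested.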

How the results depend on the processing

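No paired analysis was possible because each group is 1 library. The median log2 ratio of the 8 cohesin genes for A10 over A0 (-0.15) became -0.088 with 10 CPM added in place of 1 and -0.13 when recentred on the median gene. For B0 over A0 (0.02) it became 0.15 as a mean over cells and -0.30 when recentred. For BA10 over B0 (-0.93) it became -0.35 with 10 CPM added, -0.68 at the common limit of 9013 UMIs, -0.67 as a mean over cells, -0.87 without the 5% deepest cells and -0.66 when recentred. For BA10 over A0 (-0.15) it became -0.20 with 10 CPM added, -0.086 as a mean over cells, -0.10 without the 5% deepest cells and -0.54 when recentred. Without the filter on cells, the genes at least 2-fold lower in A10 than in A0 numbered 12 in place of 6, those higher in B0 than in A0 6678 in place of 4370, and those lower in BA10 than in B0 6123 in place of 3977. At the common limit of UMIs the Smc1b ratio for B0 over A0 went from -1.19 to 0.023, with overlapping intervals, and that of Rad21 from 0.33 to -1.17. At that limit Rec8 and Smc1b also changed sign for BA10 over B0. Other ways of forming the classes (resolution 0.5 or 2, 1000 variable genes, or a class for each cell) moved 64 ratios within classes and 111 class levels beyond counting error, while 220 and 153 stayed within it. The Smc3 ratio for BA10 over A0 ran from -1.65 to -1.09 in pachytene spermatocyte-like, -1.42 to -1.28 in late spermatocyte-like and -0.96 to -0.77 in round spermatid-like cells, and Smc1a in spermatogonia-like cells went from 50.8 to 9.35 CPM with a class for each cell. In the pair of clusters 7 and 24, a view added after the data were seen, the BA10 over A0 ratios of Smc3, Rec8 and Esco2 were -1.29, -2.04 and -0.83, and in clusters 3 and 25 they were -0.59, -0.04 and 0.20, beside -1.56, -1.12 and -0.77 in the whole class. The causes were not tested. Counts limit Rad21l, which rests on 15 to 70 UMIs per library.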
